A study of Mus musculus with 15 samples.

Results

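The genes described here are 10 enzymes of the urea cycle and of ammonia release in the liver: Nags, Cps1, Gls2, Otc, Ass1, Asl, Arg1, Arg2, Sds and Hal. They were taken by gene name from a count table of 54532 genes, in which 14219 genes, among them all 10, passed the expression filter for testing. Liver RNA of wild-type mice was sequenced as 15 libraries, in 3 groups of 5. The labels describe the control group by no more than that word. MTX mice received 1 intraperitoneal dose of methotrexate, an antifolate that can injure the liver, at 20 mg/kg, 24 h before the liver was taken. MTX+nitrate mice drank water with 2 mM nitrate over 5 days and had the same dose of methotrexate on day 5. No group had nitrate alone, the labels give no sex, age or strain, and they do not tie each library to a separate mouse. The spread behind every p-value is therefore that between libraries, which may be technical. The series asks how nitrate affects the liver injury caused by methotrexate.

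The urea cycle turns ammonia, which is toxic to the brain, into urea, and runs mainly in hepatocytes around the portal vein. Ammonia enters at carbamoyl phosphate synthetase 1 in the mitochondrion, citrulline leaves for the cytosol, and arginase 1 releases urea and returns ornithine to the start. Ammonia that passes the periportal cells is caught by glutamine synthetase in the hepatocytes around the central vein.

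Library totals lay between 16663967 and 19274497 counts. The 10 genes together took 1.04% ± 0.147 of the counts in control, 0.914% ± 0.0818 in MTX and 1.01% ± 0.157 in MTX+nitrate (mean ± SD, n = 5 each). Levels are given in CPM, the counts of a gene relative to the TMM-scaled total of its library (trimmed mean of M values), which does not correct for gene length. The 7 hepatocyte markers analysed here had a summed level between 90724 and 137740 CPM over the 15 libraries, while 4 of 5 pancreas markers were at 0 in every library. The 4 kidney markers summed to 0 to 14.0 CPM in control, 0 to 0.370 in MTX and 0 to 2.31 in MTX+nitrate. Control library 4 had the highest kidney sum, with Kap at 12.3 CPM. The 4 small intestine markers summed to between 16.2 and 42.6 CPM over the 15 libraries, mostly from Fabp2 (33.4, 27.3 and 20.5 CPM in control, MTX and MTX+nitrate). The part of other tissues in the levels was not tested. In whole liver, fewer cells of a type and less RNA per cell cannot be told apart.

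No urea cycle or ammonia gene passed an adjusted p of 0.05 in any of the 3 comparisons by edgeR's quasi-likelihood test. MTX against control had 0 of 10 called, where 3.44% of all genes tested were called (1.91% higher and 1.53% lower), with 3 of the 10 at an unadjusted p under 0.05 (Arg2, Nags and Gls2), against 21.4% of all genes. MTX+nitrate against MTX had 0 of 10 called against 4.29% of all genes (2.35% higher and 1.94% lower), and 0 of 10 at an unadjusted p under 0.05 against 22% of all genes. MTX+nitrate against control had 0 of 10 called against 2.31% of all genes (1.35% higher and 0.956% lower), with 2 of the 10 at an unadjusted p under 0.05 (Otc and Arg2), against 17.3% of all genes. DESeq2 called 1, 0 and 0 of the 10 in the same order, the 1 being Arg2, and limma-voom called none of them. With 10 genes, these shares of called genes would give less than 1 call. The median log2 fold change of the 10 was 0.05, -0.06 and -0.02, beside -0.00, 0.01 and 0.01 over all genes tested.

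The intervals show how large a difference these libraries leave room for. Leaving out the scarce Arg2, the 95% intervals of the other 9 fold changes lay between 0.661 and 1.65 for MTX against control. They lay between 0.707 and 1.35 for MTX+nitrate against MTX, and between 0.692 and 1.59 for MTX+nitrate against control. A p above the threshold does not show that a level was the same.

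**Figure D1:**
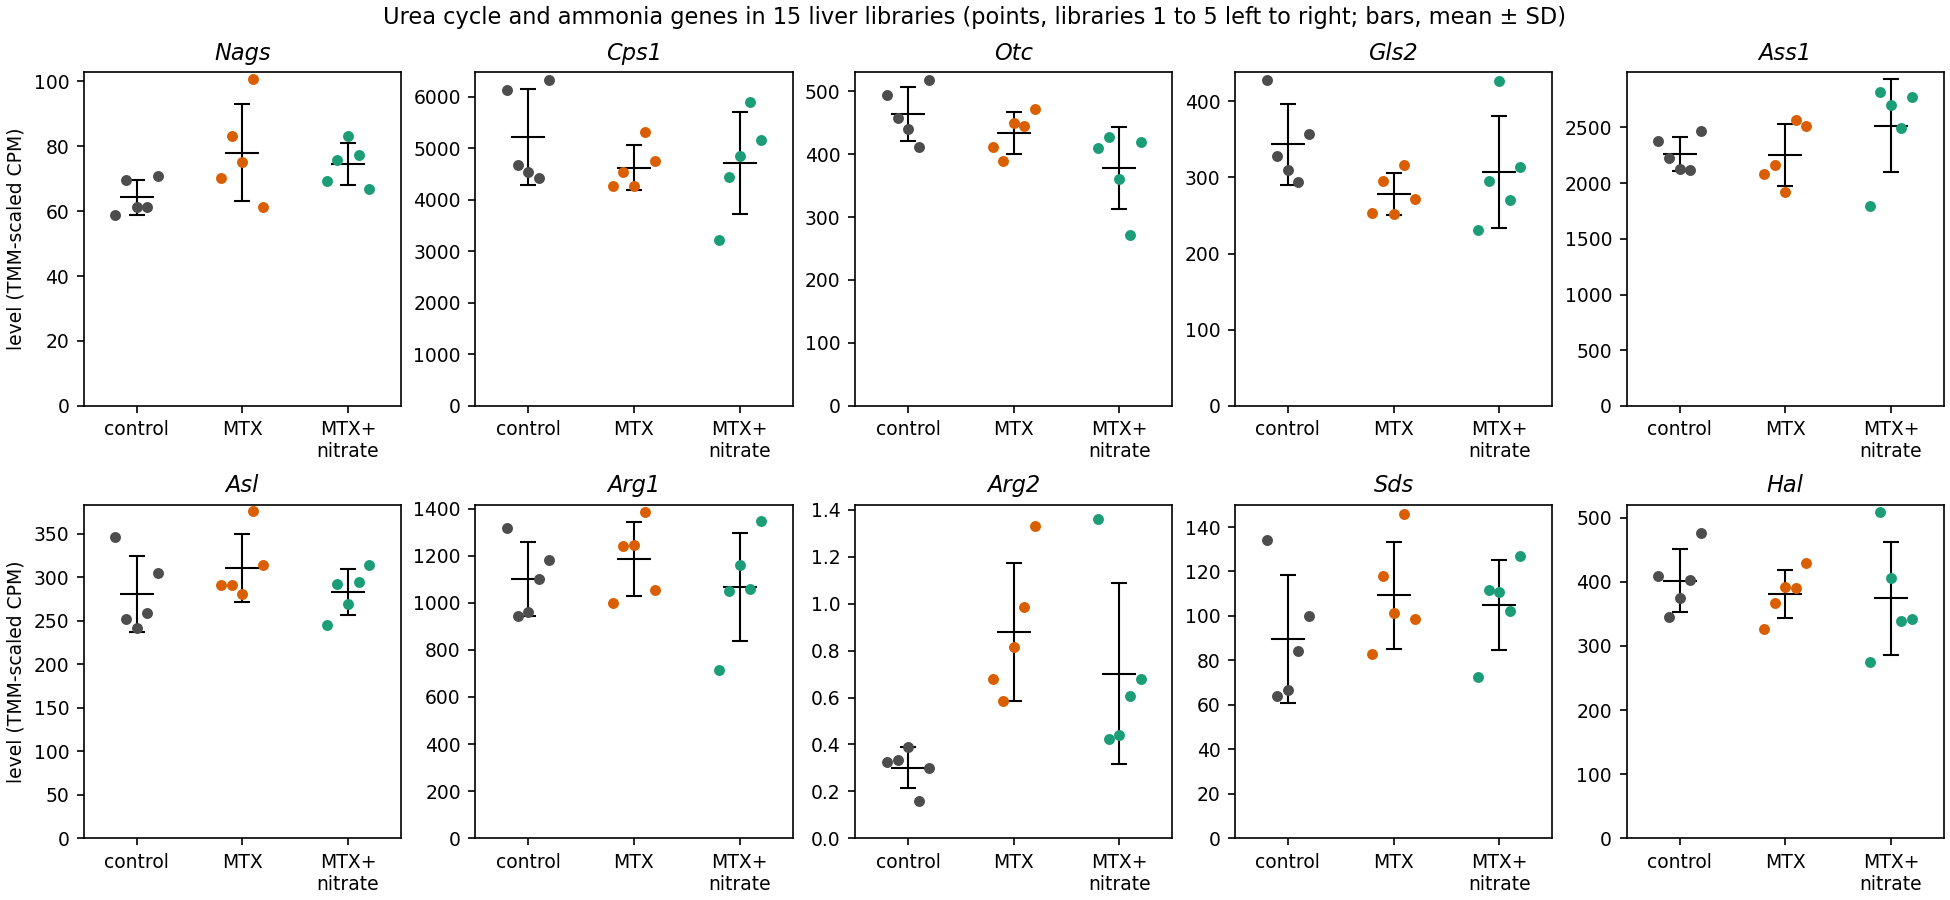
Level of each of the 10 genes (vertical axis, CPM from 0) in the control, MTX and MTX+nitrate groups; points are libraries 1 to 5 from left to right, and bars are the mean and SD. The groups overlap for 9 genes, and Arg2, under 1.4 CPM throughout, has its 5 control libraries below all others.

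**Figure D2:**
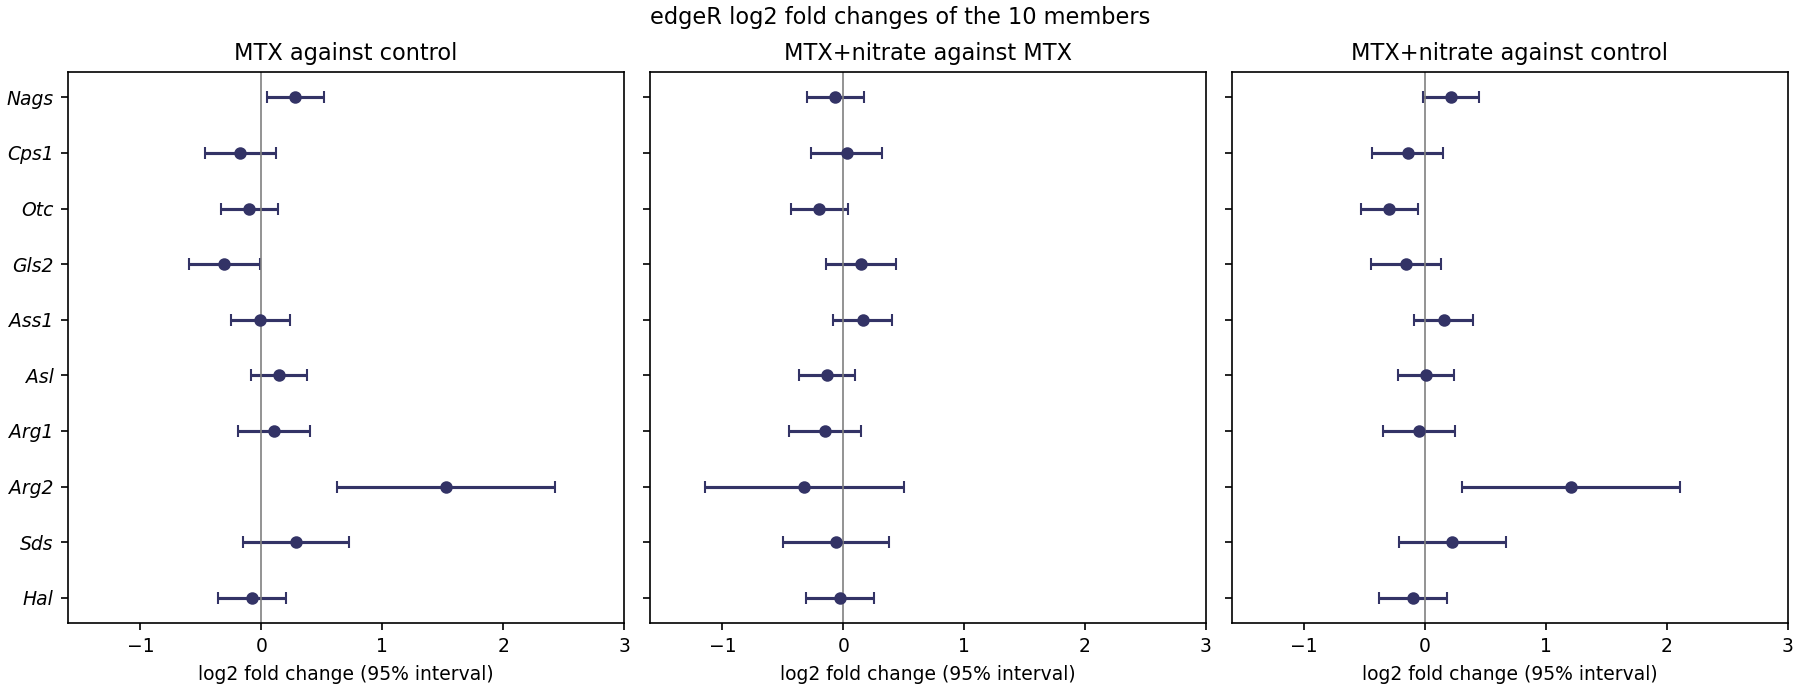
edgeR log2 fold changes (horizontal axis) of the 10 genes in the 3 comparisons, with 95% intervals. The point of Arg2 stands furthest to the right in both comparisons with control, with the widest interval, and no gene passed an adjusted p of 0.05.

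Nags makes N-acetylglutamate, the compound that switches carbamoyl phosphate synthetase 1 on (chromosome 11, 102145513 to 102149477, GRCm38). Nags stood at 58.7, 69.5, 61.3, 61.4 and 70.7 CPM in control libraries 1 to 5. It stood at 70.2, 83.1, 75.0, 100.7 and 61.3 CPM in MTX and at 69.3, 75.8, 83.3, 77.3 and 66.9 CPM in MTX+nitrate. The groups overlapped, since MTX libraries 1 and 5 lay within the control range while MTX library 4 was the highest of all. The log2 fold change of Nags was 0.28 ± 0.11 (SE) for MTX against control (1.21-fold, adjusted p = 0.155), and without MTX library 5 it was 0.36 with an adjusted p of 0.0480. It was -0.07 ± 0.11 between MTX+nitrate and MTX (adjusted p = 0.775) and 0.21 ± 0.11 between MTX+nitrate and control (adjusted p = 0.343). Of the 50-base windows of its longest transcript, 14.9% also occurred in Gm11586, a gene on the opposite strand with a mean of 1.87 counts.

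Cps1, the ammonia-fixing enzyme that opens the cycle (chromosome 1, 67123026 to 67231259), had the highest level of the 10 in CPM. Cps1 stood at 6139, 4680, 4534, 4421 and 6325 CPM in control libraries 1 to 5. It stood at 4266, 4535, 4264, 5324 and 4754 CPM in MTX and at 3228, 4449, 4859, 5895 and 5161 CPM in MTX+nitrate. Control libraries 1 and 5 were the highest of the 15 and MTX+nitrate library 1 the lowest, and the 3 groups overlapped. Cps1 had a log2 fold change of -0.17 ± 0.14 for MTX against control (adjusted p = 0.504), 0.03 ± 0.14 for MTX+nitrate against MTX (0.935) and -0.15 ± 0.14 for MTX+nitrate against control (0.655).

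Gls2, the liver glutaminase that frees ammonia from glutamine beside Cps1 (chromosome 10, 128194457 to 128210004), leaned lower in MTX without passing the test. Gls2 stood at 428, 328, 310, 294 and 358 CPM in control libraries 1 to 5. It stood at 253, 296, 253, 316 and 271 CPM in MTX and at 230, 295, 426, 271 and 314 CPM in MTX+nitrate. The lowest control libraries lay among the highest MTX libraries, and the MTX+nitrate group held both a library near the top of the 15 and the lowest. For Gls2 the log2 fold change was -0.31 ± 0.14 for MTX against control (1.24-fold lower, adjusted p = 0.208), 0.15 ± 0.14 for MTX+nitrate against MTX (0.578) and -0.16 ± 0.14 for MTX+nitrate against control (0.604).

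Otc joins carbamoyl phosphate to ornithine to give citrulline, inside the mitochondrion (chromosome X, 10252305 to 10321024). Otc stood at 494, 457, 440, 411 and 518 CPM in control libraries 1 to 5. It stood at 412, 388, 450, 444 and 472 CPM in MTX and at 410, 428, 360, 271 and 420 CPM in MTX+nitrate. MTX+nitrate library 4 was the lowest of the 15 and library 3 the second lowest, while MTX+nitrate libraries 2 and 5 lay within the control range. Otc had log2 fold changes of -0.10 ± 0.11 between MTX and control (adjusted p = 0.646) and -0.20 ± 0.11 between MTX+nitrate and MTX (0.316). It was -0.30 ± 0.11 for MTX+nitrate against control (1.23-fold lower, adjusted p = 0.172), and it lay between -0.35 and -0.20 log2 units in the fits without 1 library each.

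Ass1 joins citrulline to aspartate in the cytosol, which brings in the second nitrogen of urea (chromosome 2, 31470207 to 31520672). Ass1 ranged from 2117 to 2464 CPM in control, from 1923 to 2570 CPM in MTX and from 1797 to 2820 CPM in MTX+nitrate, with medians of 2230, 2164 and 2700 CPM. In MTX+nitrate, 4 libraries lay above every control library and library 1 lay below every one. The log2 fold change of Ass1 was -0.01 ± 0.12 for MTX against control (adjusted p = 0.976), 0.16 ± 0.12 for MTX+nitrate against MTX (0.443) and 0.15 ± 0.12 for MTX+nitrate against control (0.540). Without MTX+nitrate library 1 the last 2 were 0.26 and 0.25, with adjusted p of 0.148 and 0.189.

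Counts of Ass1 are uncertain because the mouse genome holds a nearly identical copy, the processed pseudogene Gm5424 on chromosome 10. In the GENCODE M21 transcripts the copy matched Ass1 at 99.5% of 1240 aligned bases, with 6 mismatches and no gap, and 55.3% of the 50-base windows of the Ass1 transcript also occurred in it. A 90-base stretch that holds 2 of the 6 mismatches shows how alike the copies are. It lies at positions 542 to 631 of the Ass1 transcript and at chr10:62071462-62071551 on the plus strand for Gm5424 (GRCm38), and capitals mark the bases that differ:
Ass1: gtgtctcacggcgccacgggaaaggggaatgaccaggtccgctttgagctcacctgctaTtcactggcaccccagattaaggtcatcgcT
Gm5424: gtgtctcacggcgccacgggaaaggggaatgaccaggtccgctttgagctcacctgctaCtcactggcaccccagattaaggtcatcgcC
A read that covers neither of the capitals cannot be placed between the copies from this stretch alone. Gm5424 was counted at 524 CPM in control, 531 in MTX and 572 in MTX+nitrate, and Ass1 took between 77.7% and 82.2% of the counts of the pair in the 15 libraries. The 2 genes summed to 2789 ± 175 CPM in control, 2781 ± 316 in MTX and 3089 ± 523 in MTX+nitrate (mean ± SD, n = 5). With the counts added, the log2 fold change of Ass1 was -0.00 for MTX against control (adjusted p = 0.989) and 0.15 for MTX+nitrate against control (0.549), a check chosen after the data had been seen.

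**Figure D3:**
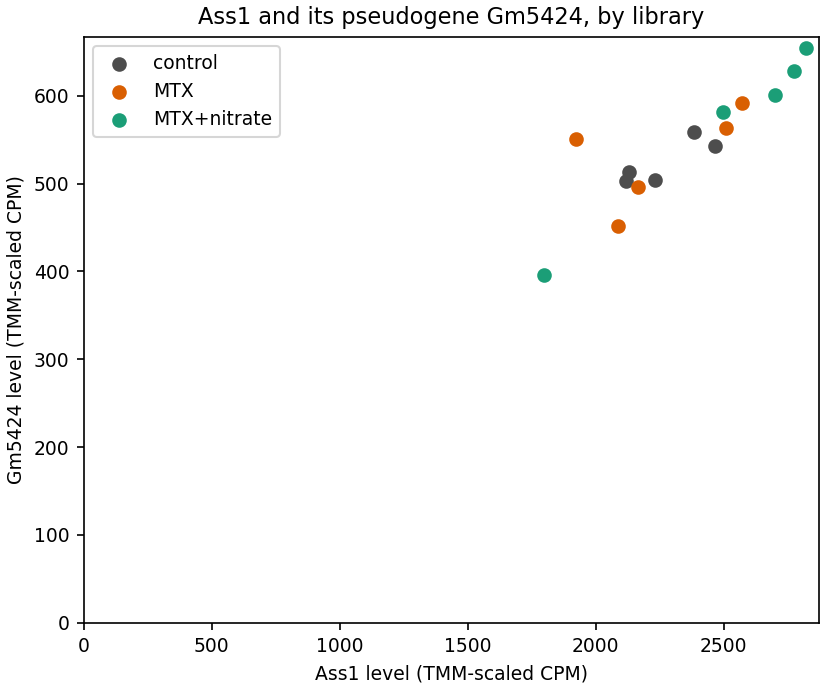
Level of Ass1 (horizontal axis, CPM) and of its pseudogene Gm5424 (vertical axis, CPM) in each of the 15 libraries, coloured by group. The points run along 1 line from MTX+nitrate library 1 at the lower left, at 1797 and 396 CPM, to MTX+nitrate library 2 at the upper right, at 2820 and 654 CPM, and MTX library 3, at 1923 and 551 CPM, lies above that line.

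Asl splits argininosuccinate into arginine and fumarate (chromosome 5, 130011258 to 130029247), and Arg1, arginase 1, then cuts arginine into urea and ornithine (chromosome 10, 24915221 to 24927484). Asl ranged from 241 to 347 CPM in control, from 281 to 377 in MTX and from 245 to 314 in MTX+nitrate. Arg1 ranged from 943 to 1319 CPM in control, from 998 to 1385 in MTX and from 715 to 1349 in MTX+nitrate. For both genes the 3 groups overlapped over most of their ranges. The log2 fold change of Asl was 0.14 ± 0.11 for MTX against control (adjusted p = 0.472), -0.13 ± 0.11 for MTX+nitrate against MTX (0.514) and 0.01 ± 0.11 for MTX+nitrate against control (0.977). That of Arg1 was 0.10 ± 0.14 (0.716), -0.15 ± 0.14 (0.572) and -0.05 ± 0.14 (0.906) in the same order.

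Arg2 encodes the mitochondrial arginase, which is known mainly from tissues other than liver (chromosome 12, 79130777 to 79156301). It was nearly absent, with 3 to 7 counts per library in control, 10 to 22 in MTX and 8 to 26 in MTX+nitrate, or 27, 73 and 66 counts per group. Arg2 stood at 0.32, 0.33, 0.39, 0.16 and 0.30 CPM in control libraries 1 to 5. It stood at 0.68, 0.59, 0.82, 0.98 and 1.33 CPM in MTX and at 1.36, 0.42, 0.44, 0.60 and 0.68 CPM in MTX+nitrate. Every MTX and every MTX+nitrate library lay above every control library, so Arg2 was 1 of 10 genes not overlapping upward in each comparison with control, where 3.15% and 2.64% of all genes tested did not overlap upward (5.42% and 5.2% in either direction). In those comparisons 0 of the 10 lay apart downward, against 2.26% and 2.57% of all genes. Between MTX+nitrate and MTX 0 of the 10 lay apart, against 3.31% of all genes upward, 2.95% downward and 6.26% in all. Arg2 passed the expression filter through the treated groups, where it was higher. Its separation from control and its p-values are thus no independent support for a difference. With at least 1 CPM required in 5 libraries, 9 of the 10 were tested, without Arg2. The same held with MTX+nitrate and control fitted alone. The log2 fold change of Arg2 was 1.53 ± 0.43 for MTX against control (2.88-fold, 95% interval 1.55 to 5.38), with an adjusted p of 0.0536. It was 1.21 ± 0.43 for MTX+nitrate against control (2.31-fold, adjusted p = 0.148) and -0.32 ± 0.39 for MTX+nitrate against MTX (adjusted p = 0.680).

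The call of Arg2 for MTX against control turned on the settings. The adjusted p was 0.0291 by DESeq2, 0.0472 in edgeR without robust estimation of the spread and 0.0447 without MTX+nitrate library 1, and over 25 settings it ran from 0.0291 to 0.131. Without MTX+nitrate library 1 the log2 fold change for MTX+nitrate against control was 0.82 (adjusted p = 0.336).

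The end of Arg2 overlaps Vti1b, a vesicle fusion gene on the opposite strand, and 17.1% of the 50-base windows of the Arg2 transcript also occurred in Vti1b. The strand setting of the counting is not given in the sources used here, so reads of the 2 genes cannot be told apart there. Vti1b had a mean of 647 counts per library against 11.1 for Arg2, and levels of 34.0, 42.8 and 32.5 CPM in control, MTX and MTX+nitrate. Vti1b was 1.26-fold higher in MTX than in control (adjusted p = 0.0704) and fell 1.32-fold from MTX to MTX+nitrate (adjusted p = 0.0365), while its level in MTX+nitrate was 0.955-fold that of control. Its part in the counts of Arg2 was not tested.

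Markers of blood cells also stood higher in some MTX libraries. Of 6 monocyte markers, all tested, 5 had log2 fold changes above 0 for MTX against control and 1, Itgax, was called. Their summed level ran from 2.58 to 6.23 CPM in control, from 2.74 to 32.6 in MTX and from 2.12 to 7.17 in MTX+nitrate, and none was at 0 in every library of a group. Of 8 neutrophil markers, 4 were tested and 0 were called for MTX against control by edgeR, with 2 at an unadjusted p under 0.05, and the sums of all 8 ran from 3.42 to 6.93, from 2.10 to 31.9 and from 2.88 to 7.03 CPM. MTX library 3 had the lowest sums of that group, 2.74 CPM for monocyte and 2.10 CPM for neutrophil markers, and its Arg2 level, 0.82 CPM, was the median of the MTX group. MTX library 5, the highest of that group in Arg2, also had the highest monocyte sum, 32.6 CPM, while MTX library 1, with 21.9 CPM, had 0.68 CPM of Arg2. MTX+nitrate library 1, the highest in Arg2 of all, had a monocyte sum of 5.66 CPM, within the control range. Of 7 Kupffer cell markers, 0 were called for MTX against control, with 2 at an unadjusted p under 0.05. All 7 had log2 fold changes above 0 (median 0.20). Of 6 cholangiocyte markers, 5 were tested and 1, osteopontin (Spp1), was called for MTX against control, where 3.44% of all genes were called. All 5 had log2 fold changes above 0 (median 0.50), with 2 at an unadjusted p under 0.05. Spp1 stood at 43.3, 137 and 36.9 CPM in control, MTX and MTX+nitrate, and made up most of the summed level of that list, while the defining markers Krt19 (1.81, 2.23 and 4.08 CPM) and Epcam (1.04, 1.48 and 0.858 CPM) were low in all groups. The part of these cells in the level of Arg2 was not tested.

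Sds, serine dehydratase, frees ammonia from serine and threonine (chromosome 5, 120476526 to 120483932), and Hal, histidine ammonia-lyase, from histidine (chromosome 10, 93488768 to 93519304). Sds stood at 134, 63.8, 66.5, 84.1 and 99.9 CPM in control libraries 1 to 5. It stood at 82.7, 118, 101, 146 and 98.4 CPM in MTX and at 72.5, 112, 111, 102 and 127 CPM in MTX+nitrate. Control library 1 was the second highest of the 15 while control libraries 2 and 3 were the lowest, so the treated groups lay inside the control range but for MTX library 4. For Sds the log2 fold change was 0.29 ± 0.21 for MTX against control (adjusted p = 0.451), -0.06 ± 0.21 for MTX+nitrate against MTX (0.903) and 0.23 ± 0.21 for MTX+nitrate against control (0.637). Its standard error was the widest of the 10 after Arg2. Of the 50-base windows of the Sds transcript, 25.2% also occurred in Plbd2 on the opposite strand, whose level was 106, 118 and 124 CPM in control, MTX and MTX+nitrate, and its part in the counts of Sds was not tested.

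Hal ranged from 346 to 477 CPM in control, from 327 to 430 in MTX and from 275 to 509 in MTX+nitrate. The MTX+nitrate group alone held both the lowest library, 1, and the highest, 2. Hal had log2 fold changes of -0.08 ± 0.13 for MTX against control (adjusted p = 0.786), -0.03 ± 0.13 for MTX+nitrate against MTX (0.935) and -0.10 ± 0.13 for MTX+nitrate against control (0.755). The 3 enzymes that follow Hal in histidine breakdown (Uroc1, Amdhd1 and Ftcd) were not called by edgeR in any comparison, had no unadjusted p under 0.05, and were called neither by DESeq2 nor by limma-voom.

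Levels of different genes were compared per kilobase of the gene length in the deposited table. In control, Cps1 and Ass1 led with 940 ± 168 and 938 ± 63.7 CPM per kilobase (SD, n = 5), followed by Arg1 with 495 ± 70.5. Otc followed with 109 ± 10.0, Gls2 with 98.9 ± 15.2, Hal with 72.5 ± 8.80, Asl with 58.1 ± 9.13 and Sds with 52.9 ± 17.0. Nags had 22.7 ± 1.91 and Arg2 0.211 ± 0.0604 CPM per kilobase, which put Arg1 far above Arg2 in the same livers. The library ranges of Cps1 and Ass1 overlapped, as did those of each neighbouring pair from Otc to Sds, and the order within these pairs is not settled. Those of Ass1 and Arg1, Arg1 and Otc, Sds and Nags, and Nags and Arg2 did not overlap. With the longest transcript as the length, Ass1 stood above Cps1 and Asl above Hal. Among the 14219 genes, Cps1 ranked 50, Ass1 51 and Arg1 89 per kilobase in control, and Arg2 ranked 13372.

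Several of the genes were high or low in the same libraries. On log2 CPM taken as deviations from the group means, the correlation over the 15 libraries was 0.90 between Arg1 and Sds, 0.88 between Asl and Sds and 0.80 between Cps1 and Asl. Among the 15 pairs of Cps1, Ass1, Asl, Arg1, Gls2 and Sds it ran from 0.56 to 0.90 with a median of 0.71. Part of this rested on MTX+nitrate library 1, which was the lowest of its group in 7 of the 10 genes (Cps1, Gls2, Ass1, Asl, Arg1, Sds and Hal), with a sum over the 10 genes of 7043 CPM where the other 4 libraries had 10032 to 10869. Without it the 15 pairs ran from 0.34 to 0.91 with a median of 0.56, and Arg1 with Sds kept 0.91, Asl with Sds 0.86 and Cps1 with Asl 0.81. The same library had the lowest hepatocyte marker sum of the 15, 90724 CPM, of which albumin (Alb) was 57933 CPM. Control library 1 also had a low marker sum, 95126 CPM, but a sum over the 10 genes of 11711 CPM. MTX+nitrate library 2 had the highest marker sum, 137740 CPM, with 10032 CPM over the 10 genes. A link between the marker sums and the 10 genes was not tested. MTX library 4 was the highest of its group in 7 of the 10, among them Cps1, Asl, Arg1, Sds and Nags, and control libraries 1 and 5 held 9 of the 10 highest control values. Otc and Nags had lower correlations with the others over the 15 libraries, from -0.20 to 0.32 for Otc and from -0.20 to 0.38 for Nags (Arg2 was left out for its low counts). Without MTX+nitrate library 1 they ran from -0.16 to 0.57 for Otc and from -0.16 to 0.35 for Nags. These correlations describe libraries that share their scaling, and carry no test.

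**Figure D4:**
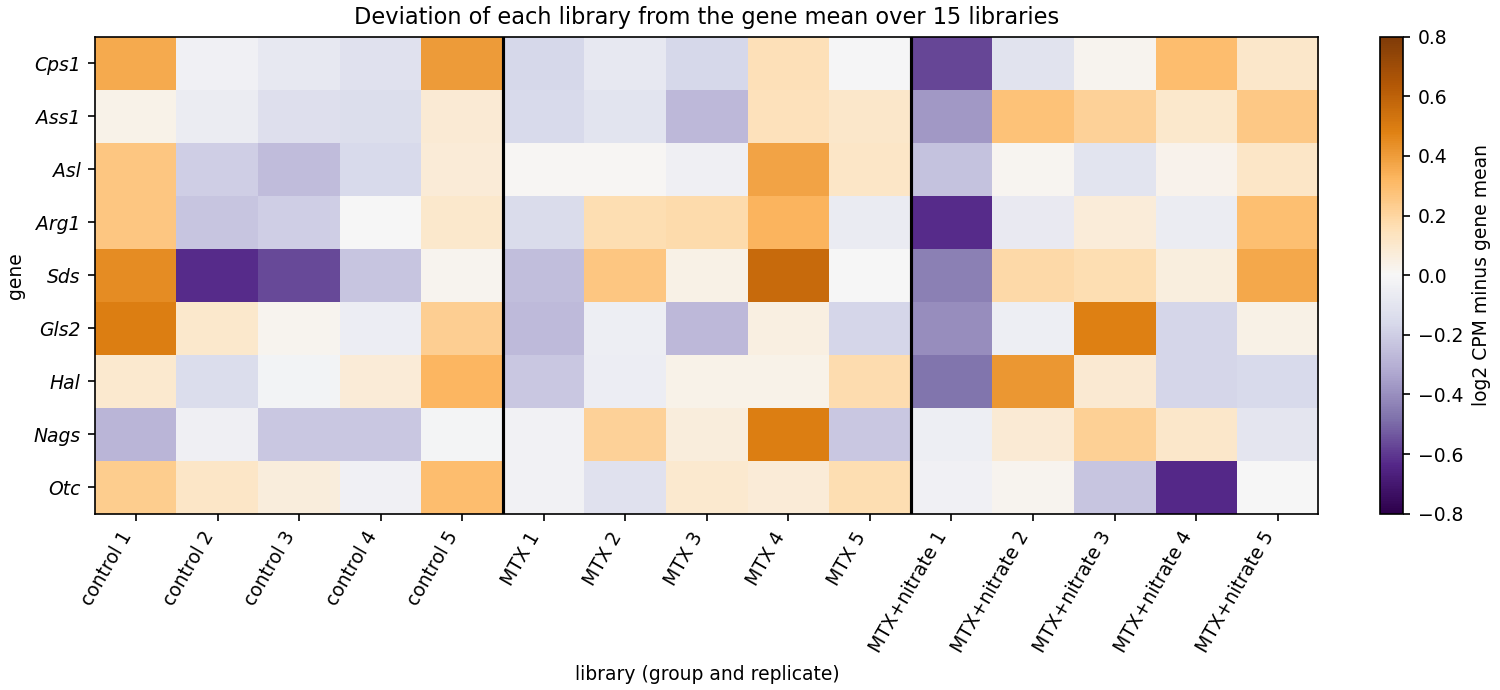
Deviation of each library from the gene's mean over the 15 libraries (colour, log2 CPM) for the 9 genes without Arg2, with groups parted by black lines. MTX+nitrate library 1 is purple (lower) for most genes, MTX library 4 and control library 1 are orange (higher) for most, and the lowest Otc value, 271 CPM, is in MTX+nitrate library 4.

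Ass1 and Hal had a correlation of 0.70 over the 15 libraries and 0.49 without MTX+nitrate library 1, while Otc had 0.16 and 0.56 with Ass1 and 0.32 and 0.57 with Hal. Their promoter windows are printed so that the letters before the starts of these 3 genes can be compared. RefSeq windows for GRCm38.p6 were matched by symbol for 4 of the 10 genes (Otc, Ass1, Nags and Hal), and the 280 bases from 250 before to 30 after the start are given on the plus strand, which is the strand of the 3 genes. For Otc and Hal this start is the gene start given above. For Ass1 it lies inside the gene, past the gene start at 31470207, so some of the bases before it belong to the gene. They lie at chrX:10252055-10252334 for Otc, chr2:31470020-31470299 for Ass1 and chr10:93488518-93488797 for Hal, and capitals mark matches to the motifs named below:
Otc: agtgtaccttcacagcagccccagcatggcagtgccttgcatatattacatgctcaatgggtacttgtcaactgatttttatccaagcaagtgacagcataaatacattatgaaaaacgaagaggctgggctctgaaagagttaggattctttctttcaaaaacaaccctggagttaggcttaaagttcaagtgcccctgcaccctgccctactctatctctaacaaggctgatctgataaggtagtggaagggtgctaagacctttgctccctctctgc
Ass1: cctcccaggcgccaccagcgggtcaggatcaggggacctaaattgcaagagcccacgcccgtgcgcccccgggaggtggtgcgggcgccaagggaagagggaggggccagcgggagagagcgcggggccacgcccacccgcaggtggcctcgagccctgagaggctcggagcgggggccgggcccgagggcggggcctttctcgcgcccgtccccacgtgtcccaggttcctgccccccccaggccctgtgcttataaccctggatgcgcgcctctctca
Hal: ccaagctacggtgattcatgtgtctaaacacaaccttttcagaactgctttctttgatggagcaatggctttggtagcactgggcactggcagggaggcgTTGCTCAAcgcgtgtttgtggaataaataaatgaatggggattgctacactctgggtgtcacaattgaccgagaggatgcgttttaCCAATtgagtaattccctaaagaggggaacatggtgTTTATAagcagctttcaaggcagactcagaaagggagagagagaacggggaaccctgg
The full windows ran from 250 bases before to 50 after the start. Of their bases, 44.3% were G or C for Otc, 74% for Ass1 and 47.7% for Hal. Both strands of the full windows were searched for 6 motifs. They were TATAAA as the core promoter box, CCAAT as the binding motif of NF-Y, and TGACG as the core of a cAMP response element. The others were TTGCNNAA as a C/EBP type site, CAAAGTCCA as an HNF4 type site, and TGTTCT as part of a glucocorticoid response element. The Hal window held TATAAA on the reverse strand 28 bases before the start, CCAAT 64 before and TTGCNNAA 150 before, with no overlap between the matches. The Nags window held TGACG 31 bases after the start, and the Otc and Ass1 windows held none of the 6. Of 32851 RefSeq promoter windows, 13.6% held TATAAA, 37.4% CCAAT, 20.8% TGACG, 10.8% TTGCNNAA, 0.475% CAAAGTCCA and 19% TGTTCT. A match is a run of letters and not a shown binding site.

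For each of the 10 genes, the 2 most alike outside them were sought among 7968 genes with a mean of at least 10 CPM, by Pearson correlation of log2 CPM over the 15 libraries. For Cps1 they were Usp7 (0.86) and Ep400 (0.82), for Otc F13b (0.93) and Fech (0.92), and for Arg1 Senp2 (0.84) and Ttc27 (0.81). Asl and Sds had the same pair, Ammecr1l (0.84 and 0.88) and Dusp16 (0.84 and 0.79). For Ass1 they were its own pseudogene Gm5424 (0.88) and Uroc1 (0.81), the second enzyme of histidine breakdown. For Gls2 they were Adhfe1 (0.83) and Ttc38 (0.81), for Nags Scly (0.82) and Cbr1 (0.81), for Hal Abca8a (0.75) and Cryl1 (0.72), and for Arg2 Cln8 (0.83) and Ldhd (0.79). Leaving out the 2 libraries farthest in the level of the urea cycle gene, these correlations ran from 0.65 to 0.96. That of Arg2 with Ldhd was 0.44 as deviations from the group means. These are the highest of many correlations and were not tested.

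Around the urea cycle, single genes did pass the test. The lists of genes around the cycle were chosen with earlier results of these data known. A count above the share of all genes is therefore no support for a difference of a list. Of 18 genes that bring nitrogen to the cycle or carry its substrates, 0 were called for MTX against control by edgeR (3 at an unadjusted p under 0.05, 0 by DESeq2 and by limma-voom), and their median log2 fold change was -0.03. The 2 lowest p belonged to the glutamine carrier Slc38a3, at 1685 and 1413 CPM in control and MTX (adjusted p = 0.208), and to glutamate dehydrogenase Glud1, at 1352 and 1597 CPM (adjusted p = 0.215). In the other comparisons 1 of the 18 was called, where 4.29% of all genes were called against MTX and 2.31% against control. It was Slc38a2, a carrier that takes up neutral amino acids such as alanine. Slc38a2 ranged from 84.2 to 123 CPM in control, from 86.7 to 132 in MTX and from 140 to 235 in MTX+nitrate, with no overlap between MTX+nitrate and the other groups. It rose 1.86-fold from MTX to MTX+nitrate (log2 0.89 ± 0.15, adjusted p = 0.00758) and was 1.98-fold higher than in control (adjusted p = 0.00476). Both calls held in all 15 fits that left out 1 library each. In MTX+nitrate against MTX, markers of other cells were called beside these genes. Of 4 neutrophil markers tested 2 were lower, of 6 monocyte markers 1 was lower, and of 6 sinusoidal endothelium markers 2 were higher (4, 4 and 5 at an unadjusted p under 0.05). Of 5 cholangiocyte markers tested 1, Spp1, was called, 3.70-fold lower (adjusted p = 0.0213). None of 7 hepatocyte, 7 Kupffer cell and 6 stellate cell markers was called. All hepatocyte and all Kupffer cell markers tested had log2 fold changes below 0. Over all genes tested, 4.29% were called. The summed level of the endothelial list ran from 140 to 204 CPM in MTX and from 203 to 301 in MTX+nitrate. The part of these cells in the calls of this comparison was not tested.

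Other amino acid breakdown enzymes gave 0 of 25 called for MTX against control by edgeR, with 4 at an unadjusted p under 0.05, 2 called by DESeq2 and 0 by limma-voom. Tyrosine aminotransferase Tat stood at 542 CPM in control and 1163 CPM in MTX (adjusted p = 0.0578). MTX+nitrate against MTX had 1 of 25 called, against 4.29% of all genes. It was Tdo2, the enzyme that opens tryptophan breakdown, which stood at 1326 CPM in MTX and fell 1.59-fold to 832 CPM (adjusted p = 0.0229). MTX+nitrate against control had 4 of 25 called against 2.31% of all genes (8 at an unadjusted p under 0.05, 5 by DESeq2 and 4 by limma-voom). This list too was chosen with earlier results of these data known, so the count does not test it. Among the 4, Tat rose 3.78-fold to 2051 CPM (adjusted p = 0.0105), and Tdo2 (1.63-fold, 0.0266) and kynureninase Kynu (1.39-fold, 0.0428) were lower. Without 1 library, Tat and the Tdo2 call against MTX held in all 15 fits. Leaving out control library 1, 3 or 5 or MTX+nitrate library 4 ended the Tdo2 call against control, and its adjusted p then reached 0.0730. Length and GC correction also ended it (0.0792). The call of Kynu ended without control library 1, 2, 3 or 5, MTX library 1, 3 or 4 or any MTX+nitrate library (up to 0.118) and with length and GC correction (0.105).

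Enzymes that use arginine or ornithine were not called in any comparison by edgeR, DESeq2 or limma-voom. Of 11, 9 were tested, and 1, 1 and 2 had an unadjusted p under 0.05 in the 3 comparisons. Ddah1, which breaks down methylarginines, stood at 67.3, 26.8 and 75.3 CPM in control, MTX and MTX+nitrate. It had the lowest p between MTX and control (adjusted p = 0.233) and between MTX+nitrate and MTX (0.178). Next came Oat (255 and 204 CPM in control and MTX, 0.388) and Odc1 (44.5 and 36.8 CPM in MTX and MTX+nitrate, 0.370). Between MTX+nitrate and control, Azin1 (102 and 82.5 CPM in control and MTX+nitrate, adjusted p = 0.240) and Oat (255 and 184 CPM, 0.251) had the 2 lowest p.

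Of 13 other periportal genes, 0, 0 and 1 were called by edgeR in the 3 comparisons, where 3.44%, 4.29% and 2.31% of all genes were. Of the 13, 2, 1 and 3 had an unadjusted p under 0.05, and DESeq2 and limma-voom also called 0, 0 and 1. The 1 called was G6pc, which releases glucose from its phosphate, higher in MTX+nitrate than in control at 1116 against 439 CPM (adjusted p = 0.0476). The call was lost without any 1 of 12 libraries (control 1 to 4, MTX 2, 3 and 5, and every MTX+nitrate library), with an adjusted p of up to 0.126, with no expression filter (0.0955) and with length and GC correction (0.0565). For MTX against control, Fbp1 (869 and 708 CPM in control and MTX) and Igfals (161 and 198 CPM) had the lowest p, with adjusted p of 0.160 and 0.229. For MTX+nitrate against MTX, the lowest p were those of G6pc (608 CPM in MTX and 1116 in MTX+nitrate, adjusted p = 0.133) and Fbp1 (708 and 824 CPM, 0.298).

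Of 5 pericentral genes that handle ammonia and glutamate, edgeR called 0, 0 and 1 in the 3 comparisons, where 3.44%, 4.29% and 2.31% of all genes were. An unadjusted p under 0.05 was reached by 0, 3 and 2 of the 5. DESeq2 called 0, 1 and 1 and limma-voom 0, 0 and 1. All 5 had log2 fold changes below 0 for MTX+nitrate against MTX (median -0.32). Against control 4 were below 0 and 1 above. Slc1a2, the glutamate transporter of the perivenous cells, ranged from 46.9 to 123 CPM in control, from 47.3 to 77.8 in MTX and from 23.4 to 45.0 in MTX+nitrate. It was 2.35-fold lower in MTX+nitrate than in control (log2 -1.23 ± 0.24, adjusted p = 0.0227) with no overlap, and leaving out control library 1 or 3 or MTX+nitrate library 5 ended the call (adjusted p of up to 0.0654). Slc1a2 differed from MTX in the same direction at an adjusted p of 0.0740, and Lhpp, at 29.4 and 20.6 CPM in MTX and MTX+nitrate, at 0.132. Glul, glutamine synthetase, stood at 534 ± 64.1 CPM in control, 547 ± 32.8 in MTX and 438 ± 135 in MTX+nitrate and was not called. Of 12 pericentral genes in all, among them the 5 above, edgeR called 0, 1 and 1 in the 3 comparisons. Of the 12, 1, 5 and 3 had an unadjusted p under 0.05. DESeq2 called 1, 3 and 1 and limma-voom 0, 1 and 1. The calcium-binding protein Rgn was the 1 called between MTX+nitrate and MTX. It fell 1.26-fold from MTX (994 CPM) to MTX+nitrate (788 CPM), with an adjusted p of 0.0273. Leaving out MTX library 2 or 3 or MTX+nitrate library 1 or 2 ended this call. After correcting for the length and GC share of transcripts, its log2 difference moved from -0.34 to -0.17 (adjusted p = 0.188), and in a fit of these 2 groups alone the adjusted p was 0.0519. Axin2, a target of Wnt signalling, stood at 8.98 CPM in control and 5.38 CPM in MTX (adjusted p = 0.0961).

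A list of 10 genes that regulate the urea cycle held transcription factors, the coregulators Ppargc1a and Crebbp, the glucagon receptor Gcgr and the mitochondrial deacetylase Sirt3. Of the 10, edgeR called 2 for MTX against control, against 3.44% of all genes tested. In MTX+nitrate it called 3 against MTX and 3 against control, where 4.29% and 2.31% of all genes were called. An unadjusted p under 0.05 was reached by 4, 4 and 6 of the 10 in the 3 comparisons. DESeq2 called 3 in each, and limma-voom 2, 3 and 3. The list was chosen with earlier results of these data known, so these counts against the shares of all genes do not test it. Hnf4a, a nuclear receptor central to hepatocyte identity, ranged from 484 to 640 CPM in control and from 646 to 818 in MTX and rose 1.35-fold without overlap (adjusted p = 0.0321). The glucocorticoid receptor Nr3c1 stood at 156 ± 18.3 CPM in control and fell 1.40-fold to 112 ± 14.5 CPM in MTX (adjusted p = 0.0233). Leaving out control library 1, 2, 3 or 5 or MTX library 1, 2 or 4 ended the call of Hnf4a (adjusted p of up to 0.0868), and leaving out control library 1 or MTX library 1 or 2 ended that of Nr3c1 (up to 0.0683). From MTX to MTX+nitrate, Foxo1 and Cebpb, both known from fasting and stress responses, rose 1.68-fold (adjusted p = 0.0148) and 1.65-fold (0.0148), and both calls held without any 1 library. Cebpa fell 1.37-fold (adjusted p = 0.0301), a call lost without MTX library 1, 2, 3 or 4 or MTX+nitrate library 1, 2 or 5. Against control, Klf15, which drives amino acid breakdown, was 1.75-fold higher in MTX+nitrate (adjusted p = 0.0301), Nr3c1 1.37-fold lower (0.0342) and Cebpa 1.36-fold lower (0.0440). Of these 3 calls, that of Klf15 ended on leaving out control library 3, 4 or 5 or MTX+nitrate library 2, 4 or 5, with no expression filter (adjusted p = 0.0650) and with length and GC correction (0.0903). Leaving out control library 1, 2, 4 or 5 or MTX+nitrate library 2, 4 or 5 ended the call of Nr3c1, and that of Cebpa ended without any of 12 libraries, control 1, 3, 4 and 5, MTX 1, 2 and 4 and every MTX+nitrate library, and in a fit of the 2 groups alone (0.0558). MTX+nitrate and MTX were each compared with the same control libraries, so these comparisons share samples.

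**Figure D5:**
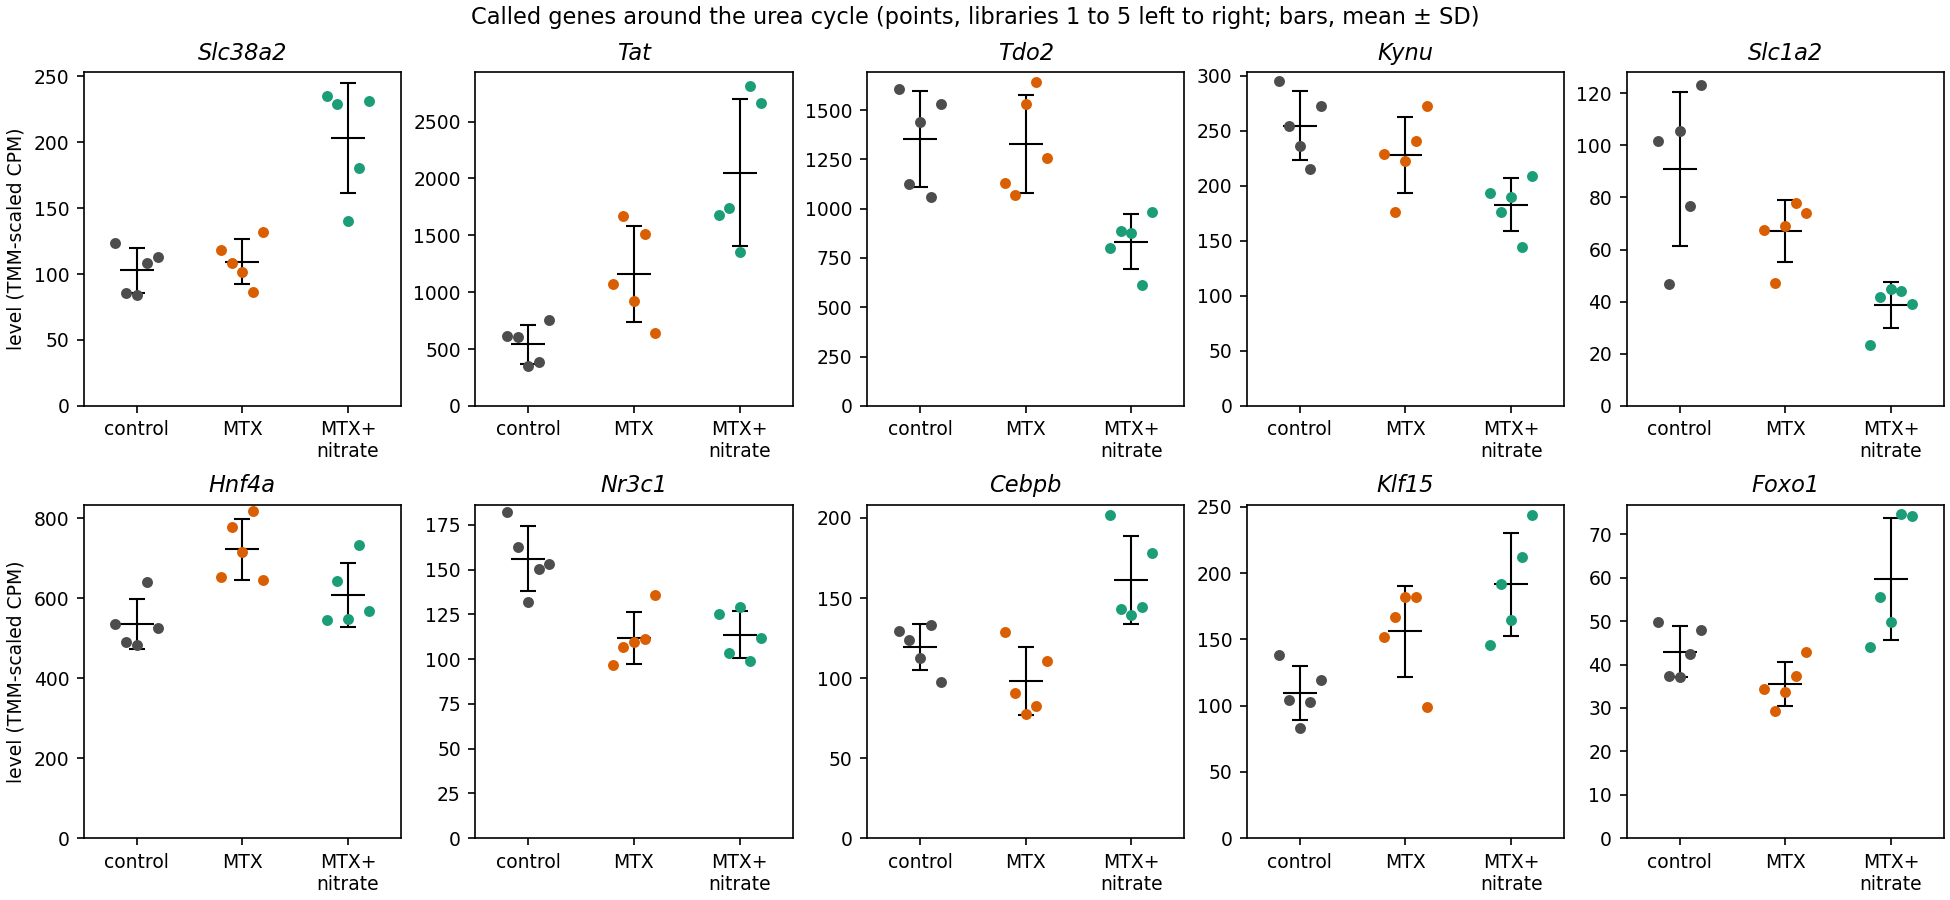
Level (vertical axis, CPM from 0) of 10 called genes around the urea cycle in the control, MTX and MTX+nitrate groups; points are libraries 1 to 5 from left to right, bars are the mean and SD. All 5 MTX+nitrate libraries lie above the other groups for Slc38a2 and below them for Tdo2 and Slc1a2.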

How the data were processed

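RNA was extracted with the RNeasy mini kit and made into libraries with the SMARTer mRNA-seq kit, per the labels' protocols. The authors deposited raw read counts per gene on GRCm38 (mm10), per the submitters' processing notes. Not given in the sources used here are the aligner, counter and strand setting. Genes were filtered with filterByExpr, scaled by TMM and fitted over all 15 libraries with edgeR 4.0.16 (R 4.3.3) by a robust quasi-likelihood test. The Benjamini-Hochberg adjustment ran over 14219 genes, and an adjusted p under 0.05 was a call. Standard errors are the log2 fold change over the root of F. Correlations among the 10 genes used log2 CPM with no prior count, and all others log2 CPM with a prior count of 2. DESeq2 1.42.0 and limma-voom (limma 3.58.1) were alternatives. In simulated counts for MTX against control (14008 genes), 25 of 99 genes changed 1.5-fold and 55 of 97 changed 2-fold were recovered with 0 false calls. For MTX+nitrate against MTX (14001 genes) it was 32 of 98 and 66 of 100 with 3 false calls, and for MTX+nitrate against control (14043 genes) 39 of 99 and 74 of 100 with 7. The changed genes were drawn at random over all levels, and all other genes were simulated without a difference. These shares therefore do not give the recovery to be expected for the 10 genes in the real counts. Named genes were the 10, the called genes of each list (up to 4, or the 2 with the lowest p), and the 2 genes most alike to each. The genes and lists were chosen with earlier results of these data known. No 2 libraries were identical, and libraries of 1 group differed by 21.6 to 58.4 times the sampling variance. 1 gene that the naming rule would add is not reported here.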

Additional observations from a re-analysis of the deposited data

Results flagged for a closer look

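Arg2 in MTX+nitrate library 1 stood far from the other 4 libraries of its group, at 1.36 CPM against 0.42 to 0.68 CPM. The gap to the nearest of them was 0.731 of the range of the group, above Dixon's 95% critical value of 0.71 for 5 samples. It was the 1 group with such a library among 30 tested (10 genes in 3 groups), and chance gives about 1 in 20.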

How the results depend on the processing

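Of 776 alternative values for the 10 genes, 740 kept their direction and side of the threshold, 32 changed sign and 4 passed the threshold. None of the 10 was called in the main fit, so no call could be lost. For MTX against control, 1 of the 10 was called by DESeq2 and 1 without robust estimation of the spread, an alternative chosen after seeing the data, as was adding Gm5424 to Ass1. Leaving out 1 library at a time gave 0 to 1. With the replicate block, 0 of the 10 were called in any comparison, and 143, 216 and 139 of all genes in place of 489, 610 and 328. The replicate numbers did not pair the libraries (same-number correlations of -0.194 to 0.0636). With the replicate block the adjusted p of other named genes passed 0.05 for Nr3c1 (0.0590) in MTX against control, Rgn (0.0587) in MTX+nitrate against MTX, and Tdo2 (0.0503), Klf15 (0.0798), Nr3c1 (0.0731) and Cebpa (0.0511) in MTX+nitrate against control. With length and GC correction and the replicate block it did so for Nr3c1 (0.108), for Tdo2 (0.110) and Rgn (0.288), and for Tdo2 (0.173), Kynu (0.158), G6pc (0.0537), Slc1a2 (0.0522), Klf15 (0.219) and Nr3c1 (0.0995), in the same order of comparisons. DESeq2 called 1141, 1167 and 752 of all genes. Length and GC correction called 368, 291 and 203, and 95, 55 and 77 with the replicate block. Fits over the 2 groups compared called 414, 281 and 324, and fits without 1 library 97 to 1033, 180 to 604 and 73 to 444. With length and GC correction, without and with the replicate block, log2 fold changes turned sign for Hal in MTX against control (0.028 and 0.019), Cps1 in MTX+nitrate against MTX (-0.081 and -0.094), and Asl (-0.14 and -0.13) and Nags (-0.0076 and -0.011) in MTX+nitrate against control. Leaving out 1 library gave a sign change for Ass1 in MTX against control (-0.060 to 0.043). It did so in MTX+nitrate against MTX for Cps1 (-0.062 to 0.14), Nags (-0.14 to 0.041), Sds (-0.15 to 0.066) and Hal (-0.16 to 0.069), and in MTX+nitrate against control for Arg1 (-0.15 to 0.067) and Asl (-0.038 to 0.10). The cause of these changes was not tested. Arg2 rests on 27 counts in control, which limits its precision.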
